A study of Mus musculus with 28 samples.

Results

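Spleens of PPARg-null mice fed abscisic acid (ABA) were compared with spleens of PPARg-null mice fed a control diet, across all genes on the array. The comparison used 8 of the 28 arrays of the series, chosen by their labels for genotype and experiment: 4 arrays from ABA-fed null mice (2 with a lipopolysaccharide challenge, LPS, and 2 without) and 4 from null mice on the control diet (2 with LPS and 2 without). The null mice are PPAR g flfl; MMTV-Cre+ animals and the wild-type mice of the same experiment, used here for side-by-side values, for the spread in the tests within a challenge and of interactions, and for the test between genotypes, are PPAR g flfl; MMTV-Cre- animals, again with 2 arrays for each diet and challenge. Both genotypes carry the floxed allele, and the null mice differ by a recombinase under the MMTV promoter, so the deletion depends on which cells that promoter drives. The labels describe the deletion in 1 place as affecting epithelial and immune cells and in another as specific to the spleen. Total RNA of spleen was hybridised to a 1-colour mouse expression array, and every value is the authors' log2 expression level of a probe set. The labels do not say that the 2 arrays of a group came from separate animals, so a p-value here speaks only of the spread among the arrays used, and that spread may be technical.

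ABA is a plant stress hormone that is also made by mammalian immune cells, and LANCL2 has been described as its receptor, acting through cyclic AMP. PPARg is a nuclear receptor that pairs with RXR, switches on genes of lipid uptake and storage in adipocytes and macrophages, and restrains inflammatory gene expression through NF-kB. LPS is the bacterial membrane component that TLR4 senses together with CD14 and MD-2. In the spleen the red pulp holds macrophages, neutrophils and, in mice, red cell precursors, while the white pulp holds B and T cells. The comparison addresses which expression differences between the diets are seen in mice whose PPARg has been targeted.

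The 8 null arrays correlated at 0.958 to 0.993 with each other over all 45101 probe sets, and at 0.962 to 0.993 within a group. On each array 35.9% to 37.5% of these probe sets read the lowest value. Spleen markers were present on every array: Ms4a1 (CD20, B cells) read 12.31 to 13.88 and Cd3d (T cells) 9.63 to 11.14. Genes of other tissues stood out on 4 arrays. Cpa1, a pancreatic digestive enzyme, read 13.50 on ABA no-LPS array 2 and 9.67 on control no-LPS array 2, against 2.24, the lowest value of the experiment, on the other 6. On these same arrays 14 of 16 pancreas genes exceeded the lowest value by more than 0.5 log2 units, with list means of 10.96 and 7.36, while the other 6 arrays had 2 to 4 such genes and list means of 2.78 to 3.00. Adipoq, the adipocyte hormone adiponectin, read 8.39 and 5.51 on control LPS arrays 1 and 2, and 2.36 to 2.49 on the other 6. Of 7 adipocyte genes, 4 and 3 lay above the lowest value by that margin on these control LPS arrays and 2 on every other array. By exact two-sided permutation of diet within challenge, Cpa1 differed by 0.96 log2 units between ABA and control arrays (p = 1) and Adipoq by -2.26 (p = 0.278), in a design whose smallest possible p is 0.0556. Xist, the RNA that coats the inactive X chromosome of females, was high (12.22 to 13.22) on ABA LPS array 2, ABA no-LPS array 2 and control LPS array 2 and read 2.24 on the other 5, so no control array without LPS had high Xist.

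**Figure D1:**
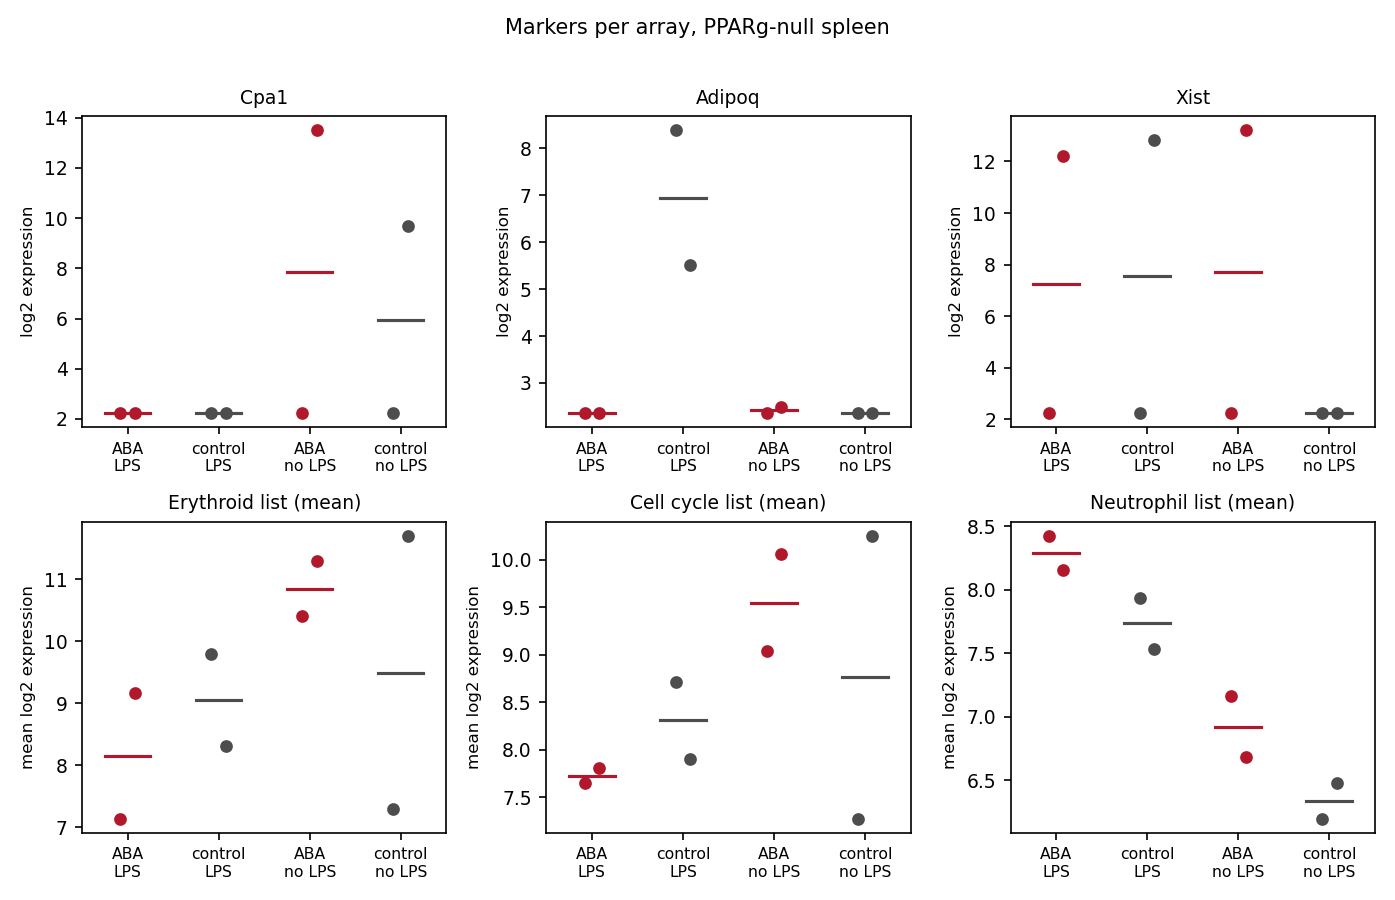
Log2 expression of Cpa1, Adipoq and Xist, and mean log2 expression of the erythroid, cell cycle and neutrophil gene lists, on each of the 8 null arrays; points are arrays, lines are the means of 2, red is the ABA diet and grey the control diet. Cpa1 is high on 1 array without LPS of each diet, Adipoq only on the control arrays with LPS, and the erythroid and cell cycle lists are low on control no-LPS array 1 relative to control no-LPS array 2.

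No gene differed between the diets in null spleen at the threshold when LPS was a term of the fit: 0 of 12979 genes tested passed (0%; limma, Benjamini-Hochberg adjusted p under 0.05, smallest adjusted p = 1). At an unadjusted p under 0.05, 92 genes read higher on the ABA diet (0.709%) and 131 read lower (1.01%). If no gene differed, 649 would be expected over both directions. The same fit called 306 genes higher (2.36%) and 190 lower (1.46%) with LPS than without (3.82% in either direction). The 95% interval of the diet difference had a median half-width of 0.58 log2 units and lay within 1 log2 unit of 0 for 8904 genes (68.6%). A set of 70 genes (0.539%) read higher and 128 (0.986%) lower on both ABA arrays than on both control arrays with LPS and again without LPS. Of the 36 arrangements of diet within challenge, 1 gives this pattern in each direction, so genes can show it without a diet difference. The genes given next are those of this set with the smallest p-values, and none of them passed the test.

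Among the genes that read lower on the ABA diet, Dcn and Slc25a17 had large differences. Dcn encodes decorin, a collagen-binding proteoglycan of the stroma, and read 9.03 and 8.83 with LPS and 9.24 and 9.59 without on the ABA arrays, against 10.73 and 10.12 with LPS and 10.14 and 10.38 without on the control arrays. All 4 ABA arrays lay below all 4 control arrays, and the difference was -1.17 ± 0.21 log2 units (SE; unadjusted p = 0.00164, adjusted p = 1, limma). The high Adipoq of the control arrays with LPS coincides with part of this difference. Without LPS, where Adipoq was at most 2.49 on all 4 arrays, Dcn differed by -0.84. In wild-type spleen the diet difference of Dcn was 0.09. Adipoq was also high there on ABA no-LPS array 1 (6.64), ABA LPS array 1 (7.61) and control LPS array 2 (5.98). Dcn read 8.19, 11.43 and 10.69 on these wild-type arrays, and the part of adipocyte RNA was not tested. Slc25a17, a peroxisomal carrier of coenzyme A and other cofactors, read 6.76 and 6.58 with LPS and 6.07 and 6.38 without on the ABA arrays, against 7.36 and 7.11 with LPS and 7.54 and 7.54 without on the control arrays. Its groups did not overlap, at -0.94 ± 0.18 (SE), and the wild-type difference was -0.90. The smallest p of the whole comparison belonged to Fam120aos, a transcript from the strand opposite Fam120a, at 7.10, 7.04, 7.47 and 7.51 on ABA arrays and 7.34, 7.49, 8.08 and 8.07 on control arrays, with the LPS arrays first in each set. It read lower on the ABA diet within each challenge, by 0.47 ± 0.07 overall (difference -0.47, SE 0.07, unadjusted p = 0.000644), although ABA arrays without LPS overlapped control arrays with LPS.

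Golm1, a Golgi membrane protein, read 5.53 and 5.79 with LPS and 7.34 and 7.97 without on ABA arrays, against 7.11 and 6.51 and 8.14 and 8.59 on control arrays, a difference of -0.93 ± 0.23 (SE). Rnf217, a ubiquitin ligase, differed by -1.04, Fbxo8, an F-box protein, by -0.78, and the retrotransposon-derived Rtl8c, which was close to the lowest value with LPS, by -0.78. Pop4, a subunit of RNase P, at -0.34, Ndufa7, a subunit of respiratory complex I, at -0.31, and Cdk2ap1, an inhibitor of CDK2, at -0.26 had small differences with little spread.

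Cx3cl1 had the largest difference among the 10 genes named as higher on the ABA diet. It encodes fractalkine, the membrane-bound chemokine that binds CX3CR1 on monocytes and natural killer cells. It read 6.83 and 8.18 with LPS and 4.65 and 4.65 without on ABA arrays, against 5.18 and 5.95 with LPS and 2.88 and 3.78 without on control arrays. Within each challenge both ABA arrays were the higher ones, by 1.63 ± 0.39 overall (SE; unadjusted p = 0.00648, adjusted p = 1, limma), and the wild-type difference had the other sign, -0.92. Cbx6, a chromobox protein of Polycomb complexes, read 6.93 and 7.14 with LPS and 8.18 and 7.83 without on ABA arrays, against 6.07 and 6.08 and 7.63 and 7.43 on control arrays. Its difference was 0.72 ± 0.14 (SE), and 0.74 in wild-type spleen. Usp10, a deubiquitinase, read 9.09 and 8.58 with LPS and 8.39 and 8.75 without on ABA arrays, against 8.30 and 8.21 and 8.09 and 8.12 on control arrays, with all 4 ABA arrays above all 4 control arrays. Irak2, a kinase that carries the signal of TLR4 and the interleukin-1 receptor, also had every ABA array above every control array: 8.58 and 8.36 with LPS and 8.46 and 8.57 without, against 8.20 and 8.20 and 7.94 and 8.26, a difference of 0.34 ± 0.09 (SE). The others were Ctu1, a tRNA-modifying enzyme (0.44), Dach1, a transcriptional cofactor near the lowest value on 6 of 8 arrays (0.40), the lysine methyltransferase Setd6 (0.37), the ribosomal protein-like Rpl7l1 (0.36), Arhgap1 (0.32), and Dlat, the acetyltransferase subunit of pyruvate dehydrogenase (0.28).

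**Figure D2:**
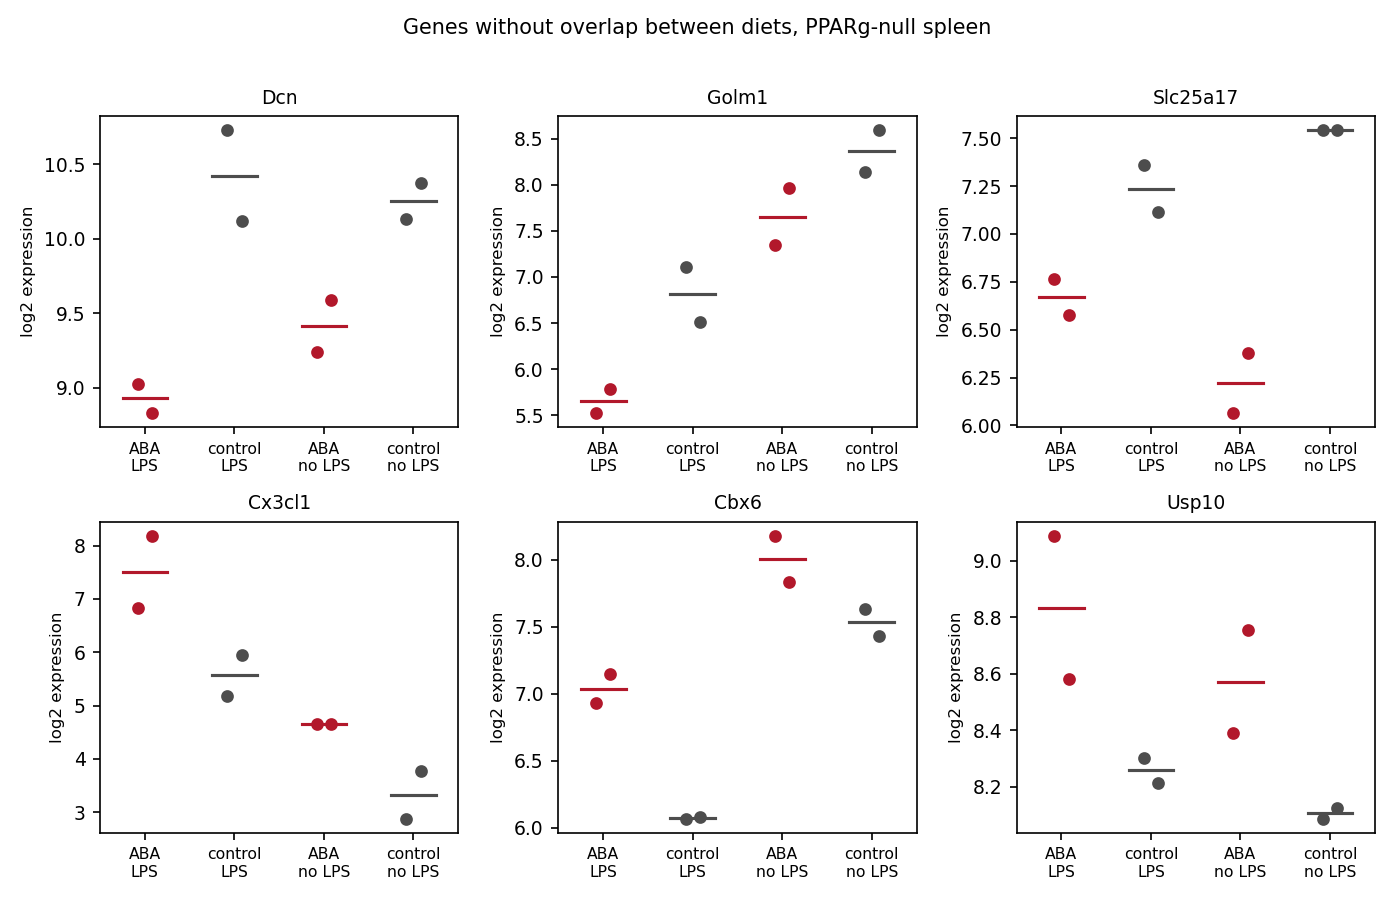
Log2 expression of 6 genes named for reading lower (Dcn, Golm1, Slc25a17) or higher (Cx3cl1, Cbx6, Usp10) on the ABA diet without overlap within either challenge; points are the 8 null arrays, lines the means of 2, red ABA and grey control. In each panel both ABA points lie on 1 side of both control points with LPS and again without, while none of the 6 passed the test over all genes.

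The targeted gene and the ABA receptor did not separate the diets. Pparg read 2.45 and 2.45 with LPS and 3.31 and 2.45 without on ABA arrays, against 2.45 and 2.45 with LPS and 3.30 and 2.50 without on control arrays, which is near the lowest value on 6 of 8 arrays. Its diet difference was -0.01 (95% interval -0.62 to 0.60), with a sign that turned under other settings. Where its probe set lies with respect to the floxed exons is unknown here, so this level does not check the genotype. Lancl2 read 7.47 and 6.23 with LPS and 7.49 and 8.39 without on ABA arrays, against 7.26 and 7.27 and 7.60 and 8.55 on control arrays. The diets overlapped without LPS, and the difference was -0.28 (95% interval -1.21 to 0.66). Of 14 genes of ABA receptor and cyclic AMP signalling that were tested, 6 read above and 8 below zero difference, with a median of -0.03 against 0 over all genes tested. That median lay between -0.19 and 0.28 when 1 array was left out, so its sign was not settled. Adcy9, an adenylyl cyclase, read 5.64 and 5.90 with LPS and 6.42 and 6.48 without on ABA arrays, against 6.00 and 6.25 and 4.66 and 4.56 on control arrays, so it was lower on ABA with LPS and higher without.

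Of 21 PPARg and lipid genes tested, 0 passed, 6 read above and 15 below zero, and the median was -0.08 (-0.20 to 0.11 with 1 array left out). Plin2, the coat protein of lipid droplets and a known PPAR target, read 11.91 and 11.83 with LPS and 10.50 and 9.99 without on ABA arrays, against 11.76 and 11.67 and 10.98 and 10.63 on control arrays. The ABA arrays were the higher ones with LPS and the lower ones without, and the difference over both was -0.20 (95% interval -0.70 to 0.29). Cd36, a fatty acid and scavenger receptor, differed by -0.45 and Cpt1a, which admits fatty acids to mitochondria, by -0.41. Fabp4, a fatty acid carrier of adipocytes and macrophages, read 7.88 and 7.44 with LPS on ABA arrays against 10.74 and 9.82 on control arrays, and 6.95 and 7.02 without LPS against 6.96 and 6.81. Its lower ABA values with LPS fall on the comparison in which the control arrays had high Adipoq, and the part of adipocyte RNA in it was not tested. The promoter of Plin2 is shown because it holds the half-site AGGTCA, which nuclear receptors of the PPAR and RXR kind recognise. The window runs from 250 bases before to 50 after the gene's start, from RefSeq on GRCm38.p6, minus strand, chr4:86670010-86670309, and the capitals mark the half-site on the opposite strand, 218 bases before the start.
Plin2: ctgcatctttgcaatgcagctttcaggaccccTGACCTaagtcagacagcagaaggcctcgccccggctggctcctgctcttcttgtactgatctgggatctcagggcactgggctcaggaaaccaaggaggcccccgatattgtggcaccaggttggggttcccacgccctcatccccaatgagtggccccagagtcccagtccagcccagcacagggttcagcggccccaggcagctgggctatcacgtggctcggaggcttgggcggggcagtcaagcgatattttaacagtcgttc
The half-site, searched on both strands, was in 5 of the 15 listed genes with a promoter sequence (Cd36, Cpt1a, Plin2, Pparg and Rxra) and in 16.26% of 32851 promoters. A pair of half-sites with 1 base between them was in 0 of the 15 and in 0.04% of all promoters.

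Inflammatory cytokines and chemokines read slightly higher on the ABA diet with LPS, and 0 of 26 passed. With LPS 20 of 27 read above zero (median 0.26), on the comparison in which the control arrays had high Adipoq, whose part was not tested, and without LPS 13 of 27 did (median 0). Of all 13460 genes tested, 7415 and 4976 did. Over both challenges 18 read above and 8 below zero, with a median of 0.16 against 0 over all genes, and the median stayed between 0.06 and 0.28 in the 14 other settings run. Those settings, for this list and the others, did not leave out both control LPS arrays with high Adipoq together. The intervals were wide, as the plot of the cytokine differences shows. Tnf read 5.58 and 5.33 with LPS and 2.46 and 2.32 without on ABA arrays, against 3.23 and 4.43 with LPS and 2.98 and 2.74 without on control arrays. ABA arrays were the higher ones with LPS and the lower ones without, for 0.58 over both challenges (95% interval -0.67 to 1.82). The sign turned without the arrays with high Adipoq, but these are both control arrays with LPS. That fit compared the diets only without LPS, so it cannot show the part of adipocyte RNA. Il6 read 5.96 and 7.38 on ABA arrays with LPS against 5.93 and 4.64 on control arrays, and 2.24 on all 4 arrays without LPS (0.69, 95% interval -0.51 to 1.90). Il1b read 10.63 and 10.51 with LPS and 8.62 and 6.44 without on ABA arrays, against 9.60 and 9.93 and 8.54 and 7.59 on control arrays. Its difference was 0.14 (95% interval -1.27 to 1.54), and the arrays without LPS overlapped. Ifng read 4.07 and 4.10 on ABA arrays with LPS and 3.11 and 6.08 on control arrays with LPS, overlapping.

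Chemokines that attract neutrophils and monocytes had the smallest p-values of this list. Ccl3, an inflammatory chemokine, read 7.80 and 7.11 with LPS and 2.66 and 2.66 without on ABA arrays, against 6.65 and 5.81 with LPS and 2.29 and 2.27 without on control arrays, 0.80 ± 0.29 (SE; unadjusted p = 0.0327, adjusted p = 1, limma). Both ABA arrays lay above both control arrays in each challenge, but the values without LPS were all near the lowest. Cxcl3, which binds the neutrophil receptor CXCR2, read 2.76 and 2.80 with LPS and 2.34 and 2.34 without on ABA arrays, against 2.57 and 2.50 and 2.25 and 2.24 on control arrays, 0.17 ± 0.05 (SE; unadjusted p = 0.0151). On 6 of 8 arrays it was close to the lowest value, so its range was small. Ccl7 went the other way with LPS, at 2.25 and 2.42 on ABA arrays against 2.90 and 2.77 on control arrays. Its difference over both challenges was -0.25, and it too was near the lowest value on 6 of 8 arrays. Ccl4 read 6.61 on ABA LPS array 1 and 3.12 on array 2, against 2.45 on both control arrays with LPS. The promoters of Cxcl3 and Il6 are shown because both hold a form of the NF-kB site, GGGA and TTTCC with any 1 base between them. The windows, 250 bases before to 50 after the start, are RefSeq's on GRCm38.p6, plus strand, at chr5:90785851-90786150 for Cxcl3 and chr5:30012864-30013163 for Il6, and the capitals mark the match.
Cxcl3: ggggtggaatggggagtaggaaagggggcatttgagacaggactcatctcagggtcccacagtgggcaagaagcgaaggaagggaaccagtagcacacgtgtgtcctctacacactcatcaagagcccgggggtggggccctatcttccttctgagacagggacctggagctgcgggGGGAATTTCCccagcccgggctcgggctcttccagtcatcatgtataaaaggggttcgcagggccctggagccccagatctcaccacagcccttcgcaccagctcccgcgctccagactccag
Il6: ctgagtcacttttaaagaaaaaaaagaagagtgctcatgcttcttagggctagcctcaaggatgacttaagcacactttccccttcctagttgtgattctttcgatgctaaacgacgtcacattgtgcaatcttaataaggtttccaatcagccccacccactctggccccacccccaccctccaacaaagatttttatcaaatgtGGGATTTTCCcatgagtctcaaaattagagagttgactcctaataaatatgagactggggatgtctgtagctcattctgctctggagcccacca
The match begins 73 bases before the start in Cxcl3 and 44 bases before it in Il6. Searched on both strands, the motif was in 5 of 20 listed cytokine genes with a promoter sequence (Csf1, Cxcl1, Cxcl2, Cxcl3 and Il6) and in 0.41% of 32851 promoters. Among these 5 genes Cxcl1 differed by 0.69, Cxcl2 by 0.63 and Csf1 by 0.10, and none passed.

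**Figure D3:**
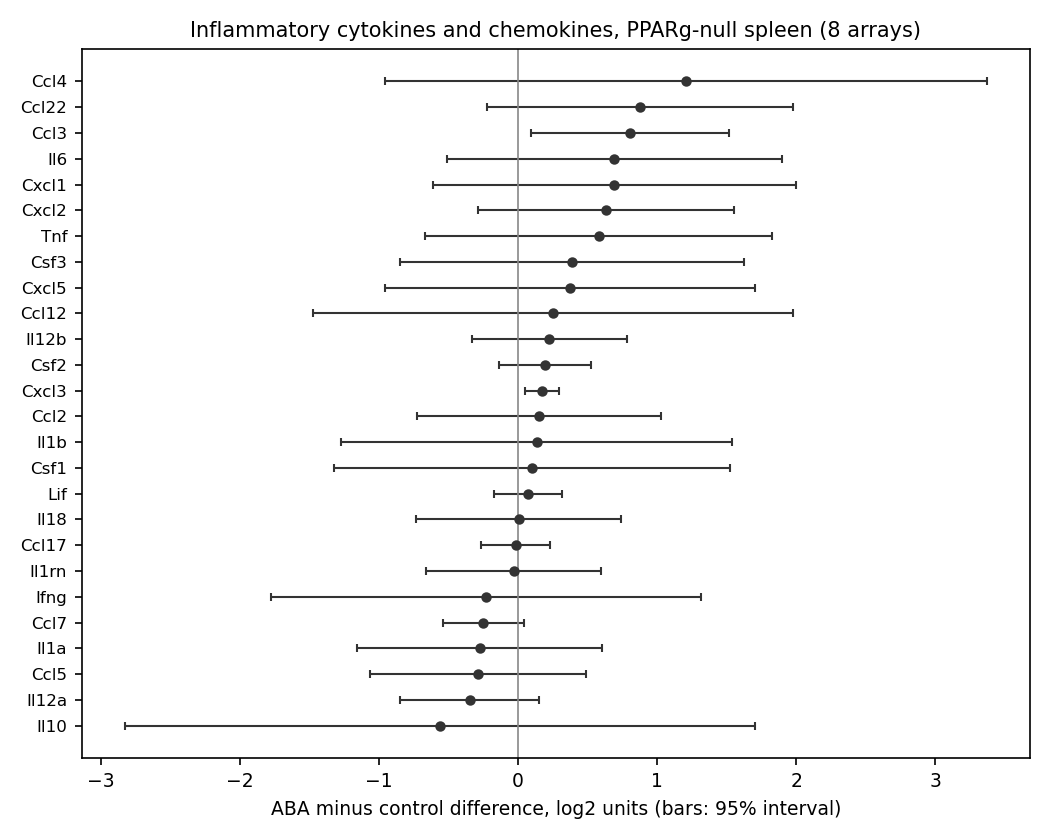
ABA minus control difference in log2 units (points) with its 95% interval (bars) for the 26 inflammatory cytokine and chemokine genes tested in the 8 null arrays, ordered by size, with the vertical line at 0. The intervals of Ccl3 and Cxcl3 lie above 0 and those of the other 24 include 0.

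Upstream of the cytokines, 0 of 24 TLR4 and NF-kB genes passed, 17 read above zero and the median was 0.13 (0.02 to 0.29 with 1 array left out). The list pointed in opposite directions by challenge: 19 of 24 read above zero with LPS (median 0.35) and 6 of 24 without (median -0.31). All genes shifted the same way, though less. Of 13460 tested, 7415 read above zero with LPS and 4976 without (medians 0.02 and -0.06), which also bears on the next 2 lists. Without LPS the median was 0.09 when control no-LPS array 1 was left out and 0.03 without ABA no-LPS array 2. Ikbkg, the NEMO scaffold of the IkB kinase, read 6.25 and 6.33 with LPS and 6.78 and 6.59 without on ABA arrays, against 6.99 and 7.01 and 6.996 and 6.82 on control arrays. Every ABA array lay below every control array, by -0.47 ± 0.12 (SE; unadjusted p = 0.00887, adjusted p = 1, limma). Nfkb2, an NF-kB subunit, differed by 0.36 and Tlr4 by -0.26. Of 20 immediate-early genes 15 read above zero (median 0.20, and 0.04 to 0.34 with 1 array left out). With LPS 18 of 20 did (median 0.62) and without LPS 4 of 20 (median -0.15, which was 0.003 without ABA no-LPS array 2 and 0.05 with arrays centred). Of 13 glucocorticoid-responsive genes 12 read above zero (median 0.24, and -0.003 to 0.57 over the 14 other settings run), with 13 of 13 above zero with LPS (median 0.57) and 5 of 13 without (median -0.03, and -0.55 to 0.70 with 1 array left out). Among them were Cdkn1a, a cell cycle inhibitor, at 0.48 and Il1r2, the interleukin-1 decoy receptor, at 0.71.

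Most interferon-responsive genes read lower on the ABA diet without LPS. Over both challenges, 15 of 21 type I interferon-stimulated genes and 14 of 17 interferon-gamma-induced genes read below zero, with medians of -0.29 and -0.30 against 0 over all genes, and 0 passed in either list. The type I median over both challenges was 0.06 without control no-LPS array 1 and 0.02 without ABA no-LPS array 1, and the other stayed below zero (-0.60 to -0.02). Without LPS the medians were -0.82 and -0.65 against -0.06 over all genes, and with LPS 0.13 and 0.09 against 0.02, and these were -0.07 and -0.11 with arrays centred on their medians. The interferon-gamma median with LPS was also -0.13 without ABA LPS array 2 and -0.05 without control LPS array 1, and reached 0.39 without control LPS array 2. In all 21 other settings run, the medians without LPS kept their sign, between -1.58 and -0.13 for type I and between -1.14 and -0.09 for interferon-gamma-induced genes. Ifit2, an antiviral RNA-binding protein, read 5.35 and 5.51 without LPS on ABA arrays against 7.93 and 5.76 on control arrays, and the diets overlapped with LPS. Cxcl9, a T cell chemokine, read 6.72 and 6.76 without LPS on ABA arrays against 8.78 and 7.46 on control arrays, with overlap under LPS. Control no-LPS array 1 was the highest of the 4 arrays without LPS for both. The list mean for type I genes without LPS was 5.80 and 6.52 on the ABA arrays, against 7.13 and 6.41 on control arrays 1 and 2, so the diets overlapped. Stat2 differed by -0.82 and Oas3 by 1.01 in the other direction. Of 13 antigen presentation genes 9 read below zero (median -0.25), led by the class II genes H2-Eb1 at -1.91 and H2-DMa at -0.71. H2-Eb1 varied between 9.39 and 13.64 across arrays, with a spread inside each ABA group of over 2 log2 units.

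Neutrophil genes read higher on the ABA diet with and without LPS. Of 14 tested, 12 read above zero and the median was 0.61 against 0 over all genes. This median stayed between 0.42 and 0.78 in the 14 other settings run, and 0 genes passed. With LPS 10 of 14 read above zero, against 7415 of all 13460 genes tested. The list median there was 0.57, and 0.27 without control LPS array 2. Without LPS 14 of 14 read above zero, against 4976 of all genes. The list median without LPS was 0.47. It was 0.27 without ABA no-LPS array 1, 0.27 without control no-LPS array 1 and 0.91 without ABA no-LPS array 2. The list mean was 8.42 and 8.16 on ABA arrays with LPS and 7.16 and 6.68 without, against 7.94 and 7.53 with LPS and 6.20 and 6.48 without on control arrays, so the diets did not overlap within a challenge. Of the 36 arrangements of diet within challenge, 1 gives such a pattern in each direction, and 27 lists were examined. S100a8, a subunit of calprotectin, read 14.79 and 14.56 with LPS and 13.14 and 12.27 without on ABA arrays, against 13.88 and 13.78 with LPS and 12.41 and 11.66 without on control arrays. With LPS both ABA arrays were higher, and without LPS ABA array 2 lay below control array 1, for 0.76 ± 0.25 overall (SE; unadjusted p = 0.0233, adjusted p = 1, limma). Ngp, a granule protein, differed by 1.09, lactoferrin (Ltf) by 1.05, the gelatinase Mmp9 by 0.99 and S100a9 by 0.70. Mpo and Elane, the enzymes of primary granules, differed by -0.04 and -0.07. The wild-type median of the list was 0.53, on other arrays than those of the null mice. In bulk spleen RNA, more cells of a type and more RNA per cell cannot be told apart. Of 16 acute phase and antimicrobial genes 13 read above zero (median 0.26), among them Lcn2, the iron-withholding lipocalin, at 0.89 and Saa3 at 0.76. This list shares Lcn2, Ngp and Camp with the neutrophil list, so the 2 are not separate sets. Ptx3, a soluble pattern receptor, went the other way, at 2.62 and 2.28 with LPS on ABA arrays against 6.87 and 3.74 on the control arrays that also had high Adipoq.

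The red cell and cell cycle genes pointed in opposite directions with and without LPS. Of 14 erythroid genes 1 read above zero with LPS and 14 without, with medians of -0.95 and 1.40 against 0.02 and -0.06 over all genes. Of 29 cell cycle genes 4 read above zero with LPS and 26 without, with medians of -0.43 and 0.83. None of these genes passed, and the arrays of a group were far apart. The erythroid mean was 7.14 and 9.17 with LPS and 10.40 and 11.29 without on ABA arrays, against 9.79 and 8.32 with LPS and 7.29 and 11.70 without on control arrays. Control no-LPS array 1 decided the sign without LPS: leaving it out gave a median of -0.60 for erythroid and -0.65 for cell cycle genes, and leaving out control no-LPS array 2 gave 3.63 and 2.29. Leaving out ABA LPS array 1 gave an erythroid median of 0.24 with LPS. Alas2, the first enzyme of heme synthesis in red cells, read 13.31 and 13.45 without LPS on ABA arrays and 9.76 and 13.96 on control arrays. Hemgn, a nuclear protein of red cell precursors, read 7.96 and 11.11 with LPS on ABA arrays and 12.51 and 10.81 on control arrays.

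B and T cell genes ran the other way. Of 13 B cell genes 12 read above zero with LPS and 1 without (medians 0.57 and -0.45), and of 15 T cell genes 12 and 2 did (medians 0.32 and -0.47), with 0 passing. Of all 13460 genes tested, 7415 and 4976 did (medians 0.02 and -0.06), a smaller shift in the same direction. The B cell median without LPS was 0.01 without ABA no-LPS array 2, while the T cell median kept its sign in the 21 other settings run within each challenge. Fcer2a, the low-affinity IgE receptor of B cells, read 8.39 and 9.30 with LPS on ABA arrays against 6.48 and 6.94 on control arrays, and overlapped without LPS. Cd8b1, the CD8 beta chain, read 6.36 and 5.90 with LPS and 6.87 and 7.04 without on ABA arrays, against 6.79 and 7.06 with LPS and 8.68 and 7.20 without on control arrays, at -0.89 ± 0.33 (SE; unadjusted p = 0.0372, adjusted p = 1, limma). Here both ABA arrays were below both control arrays in each challenge. Natural killer and cytotoxic genes had a median near zero (0.00, 13 genes), macrophage genes -0.22 (18 genes), dendritic cell genes -0.16 (9 genes), plasma cell genes -0.06 (9 genes), endothelial and stromal genes -0.07 (16 genes) and platelet genes 0.22 (10 genes). The first 5 of these turned sign or reached zero with 1 array left out: without control no-LPS array 1 the macrophage median was 0.06, the dendritic cell median 0.17, the plasma cell median 0.04 and the endothelial median 0.16, and without ABA no-LPS array 2 these medians were 0.05, 0.10, 0 and 0.22. Dendritic cell genes had medians of 0.25 with LPS and -0.50 without, and endothelial and stromal genes 0.26 and -0.41. Tbx21, the T-bet factor of cytotoxic lymphocytes, read 6.87 and 7.14 with LPS on ABA arrays against 5.22 and 4.65 on control arrays, and 3.81 and 3.15 against 4.07 and 5.04 without. The pancreas list had a median of 1.07 over both challenges and the adipocyte list -1.26, on the arrays with high Cpa1 and Adipoq given above, and the 3 liver genes tested had a median of 0.00.

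**Figure D4:**
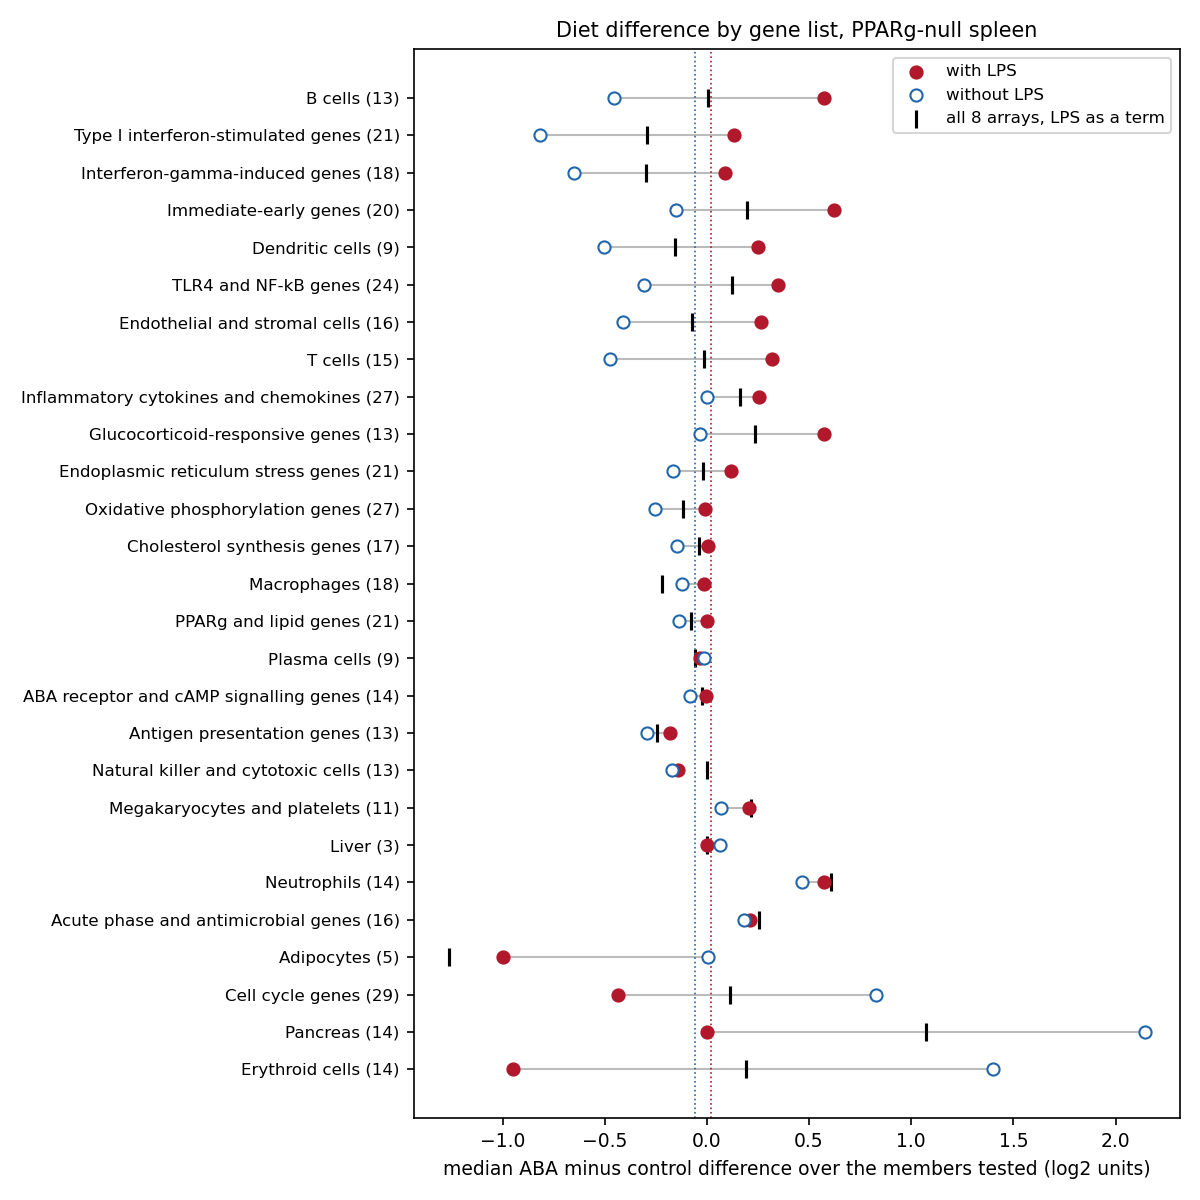
Median ABA minus control difference (log2 units) over the members tested of each of 27 gene lists in null spleen, with LPS (red filled points), without LPS (blue open points) and over all 8 arrays with LPS as a term (black bars); numbers in brackets are members tested, and dotted lines are the medians of all genes. Neutrophil genes lie above zero in all 3, erythroid and cell cycle genes lie on opposite sides of zero with and without LPS, and B and T cell genes lie on opposite sides in the reverse order.

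Genes of energy metabolism and of the secretory pathway differed little over both challenges. Of 27 oxidative phosphorylation genes 22 read below zero, with a median of -0.12 and a range of -0.35 to 0.17. Without LPS 3 of 27 read above zero (median -0.25, and -0.30 to -0.05 in the 21 other settings run). With LPS 13 of 27 did (median -0.01, and -0.21 to 0.11). Of all 13460 genes tested, 4976 without LPS and 7415 with LPS read above zero. Ndufb5, a subunit of complex I, read 10.33 and 10.38 with LPS and 10.62 and 10.38 without on ABA arrays, against 10.45 and 10.66 and 11.20 and 10.81 on control arrays (-0.35 ± 0.13, SE; unadjusted p = 0.0343, adjusted p = 1, limma). Both ABA arrays were the lower ones in each challenge. Endoplasmic reticulum stress genes had a median of -0.02 (21 genes) and cholesterol synthesis genes -0.04 (17 genes). Over all lists, 0 members passed in the comparison with LPS as a term, within either challenge, or in the interaction of diet and LPS. At an unadjusted p under 0.05 in the first of these, 4 listed genes read higher (Cxcl3, Ccl3, Irak2 and S100a8) and 3 lower (Ikbkg, Ndufb5 and Cd8b1).

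Within a challenge, some genes did differ between the diets. These tests used group means of the 16 arrays of both genotypes, which share 1 estimate of the spread. With LPS, 11 genes were higher (0.0817%) and 9 lower (0.0669%) on the ABA diet, of 13460 tested (0.149% in either direction). Arap3, which switches off Arf GTPases, rose, at 6.95 and 6.76 on ABA arrays against 4.97 and 5.49 on control arrays (1.62 ± 0.16, SE; limma, adjusted p = 0.0255). Med15, a subunit of the Mediator complex, read 8.92 and 8.91 against 7.70 and 7.85 and rose by 1.15. Rasa4, a Ras GTPase-activating protein, read 5.87 and 5.66 against 3.58 and 3.60 and rose by 2.17. Slc9a5, a sodium-proton exchanger near the lowest value on 6 of 8 arrays, rose by 0.60. Slc9a5 read 3.21 and 3.32 on the ABA arrays with LPS and 2.66 on the other 6. The count depended on the arrays in the fit: 2 genes passed when the 8 null arrays alone gave the spread. Leaving out 1 array gave 177 without control null LPS array 2, 72 without control null LPS array 1, 40 without ABA null LPS array 2, 10 without either control wild-type LPS array and 0 without either control null no-LPS array.

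Without LPS, 12 genes were higher (0.0892%) and 11 lower (0.0817%) on the ABA diet (0.171% in either direction). Mmp2, a matrix gelatinase of stromal cells, fell, at 2.67 and 2.61 on ABA arrays against 3.93 and 4.20 on control arrays (-1.42 ± 0.10, SE; limma, adjusted p = 0.00165). It was near the lowest value on 6 of 8 arrays. Tfcp2, a transcription factor, read 3.29 and 3.24 against 4.90 and 4.90 and fell by 1.64. Klc4, a kinesin light chain, read 2.89 and 2.89 against 3.78 and 3.58, a difference of -0.79, and 2.87 to 2.89 on the null arrays with LPS. Slc45a1, a sugar transporter, read 5.77 and 5.77 against 5.11 and 5.18, a difference of 0.62. It read the same 5.77 on every null array with LPS, so only the control arrays without LPS departed from the repeated value. Among the 23 genes, 7, with Klc4 and Slc45a1 among them, had 4 or more of the 8 null arrays within 0.01 log2 units of 1 value, as did 30.0% of all genes tested. No gene passed when the 8 null arrays alone gave the spread, and 1 passed without the arrays with high Adipoq. Without both arrays with high Cpa1, which leaves 1 array of each diet, assumed to vary like the other groups, 236 passed. Leaving out 1 array gave 336 without control null no-LPS array 2, 212 without control null no-LPS array 1, 100 and 42 without ABA null no-LPS arrays 1 and 2, and 37 without either control wild-type no-LPS array. In the fit of 16 arrays, H1f7 was the gene called in both challenges, in opposite directions.

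The diet difference itself differed with LPS for 51 genes: it was more positive with LPS than without for 30 (0.223%) and more negative for 21 (0.156%), or 0.379% in either direction. H1f7, a linker histone known from testis, read 3.82 and 3.76 with LPS and 3.82 and 3.82 without on ABA arrays, against 4.43 and 4.64 with LPS and 2.24 and 2.35 without on control arrays. It was lower on ABA with LPS (-0.74) and higher without (1.52), and the difference between these was -2.27 ± 0.12 (SE; limma, adjusted p = 0.000212). The control values without LPS are at or near the lowest value of the arrays, so the differences that use them are set against a probe set with no clear signal there. Ubr2, a ubiquitin ligase of the N-degron pathway, read 8.49 and 8.65 with LPS and 8.51 and 8.36 without on ABA arrays, against 7.44 and 7.29 and 9.25 and 9.44 on control arrays (interaction 2.12, adjusted p = 0.0154). For H1f7, Ubr2 and Mmp2 (1.67) the ABA arrays read alike with and without LPS and the control arrays did not. For H1f7 this was a repeated value, 3.82, on every ABA array but LPS array 2. For Mmp2 all ABA values, 2.61 to 2.67, were near the lowest value, so neither gene shows a steady level above it. Slc35e1, of a nucleotide-sugar transporter family, read 6.59 and 6.52 with LPS and 6.22 and 6.16 without on ABA arrays, against 5.89 and 5.87 and 6.70 and 6.75 on control arrays (1.21), and Med15 had an interaction of 1.56. The LPS effect within each diet was not tested. The largest interactions, noted after their values were seen, were in Neurl4 (3.87), Ap2b1, a clathrin adaptor subunit (3.71), and Slc1a4, a neutral amino acid transporter (-3.62).

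Of the 51 genes, 48 had diet differences of opposite sign in the 2 challenges, and for 39 both ABA arrays lay on 1 side of both control arrays with LPS and on the other side without. Over all 13460 genes tested, 1314 (9.76%) showed this pattern, of which 1049 were higher on ABA with LPS and lower without, and 265 the reverse. The median over tested genes moved the same way. It was 6.58 and 6.53 on ABA and 6.33 and 6.36 on control arrays with LPS. Without LPS it was 6.56 and 6.41 on ABA and 6.73 and 6.65 on control arrays. The median over all probe sets did not move this way. With LPS that median was 2.480 and 2.487 on ABA and 2.559 and 2.517 on control arrays. Without LPS it was 2.518 and 2.539 on ABA and 2.520 and 2.505 on control arrays. The median interaction over all genes was 0.14, and it was 0.00 after quantile normalisation and -0.27 with arrays centred on their medians. The split of the calls moved with this scaling, to 16 more positive and 29 more negative after quantile normalisation (33 shared with the 51) and to 5 and 16 with centring (17 shared). After quantile normalisation the pattern of opposite sides was shown by 1074 genes in the more frequent direction and 859 in the other. The count of 51 became 2 when the 8 null arrays alone gave the spread (1 shared), 15 with a term for high Xist (14 shared) and 216 without the arrays with high Cpa1 (33 shared). Leaving out 1 array gave 288, 193, 173 and 160 without control null no-LPS array 2, control null no-LPS array 1, control null LPS array 2 and ABA null no-LPS array 1. It gave 25 without ABA null LPS array 1 and 30 without either ABA wild-type LPS array. Of the 51, 11 had a value repeated within 0.01 on 4 or more of the 8 null arrays, and 7 carry clone or predicted-gene names.

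**Figure D5:**
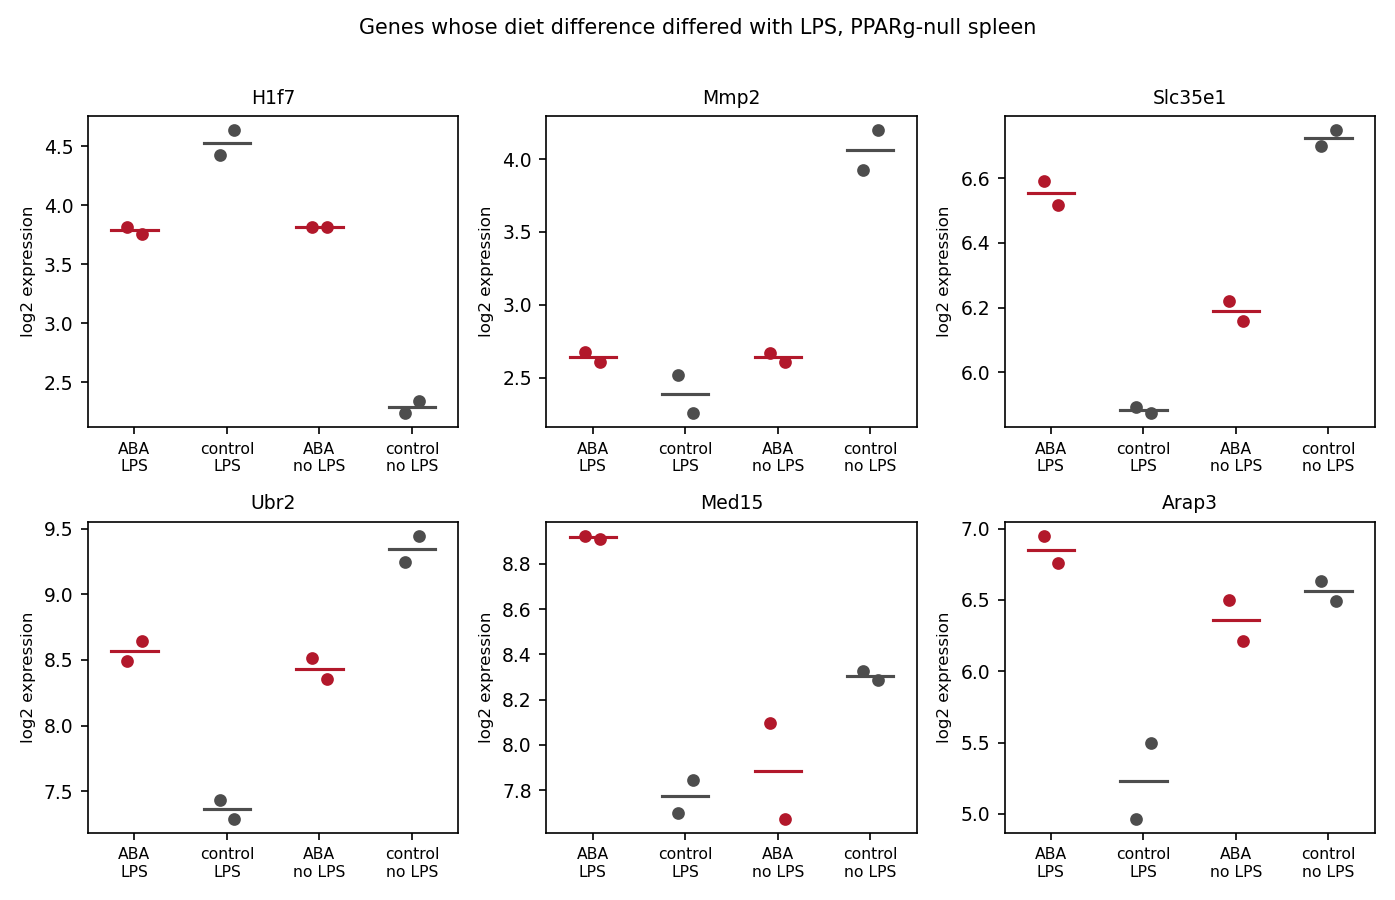
Log2 expression of 6 genes called for the interaction of diet and LPS on the 8 null arrays; points are arrays, lines means of 2, red ABA and grey control. In H1f7, Slc35e1, Ubr2 and Med15 the ABA points lie on opposite sides of the control points with and without LPS, in Mmp2 they lie below the control points without LPS and above them with LPS by a small margin, and in Arap3 they lie above with LPS.

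The diet difference in null spleen was set against that in wild-type spleen of the same experiment, which asks whether targeting PPARg alters it. For 0 of 13460 genes (0%) did the 2 differences differ at the threshold (limma, smallest adjusted p = 0.231), with 356 genes more positive (2.64%) and 198 more negative (1.47%) in null mice at an unadjusted p under 0.05. That test could miss real differences: in simulated data it recovered 7% of genes changed by 1 log2 unit and 46% of those changed by 2. The wild-type comparison likewise called 0 of 12843 genes (0%), with 350 higher (2.73%) and 420 lower (3.27%) at an unadjusted p under 0.05. The smallest p of the difference between genotypes belonged to Smpdl3b, a membrane phosphodiesterase that restrains TLR signalling, which read 3.31 and 2.83 with LPS on ABA null arrays, against 2.24 and 2.60 on control null arrays. In wild-type spleen with LPS it read 2.24 and 2.24 on ABA arrays, against 3.76 and 3.73 on control arrays, and without LPS it read 2.24 on all arrays of both genotypes. The diet difference was 0.32 in null and -0.75 in wild-type spleen, 1.08 apart, without passing. Leaving out 1 array gave between 0 and 69 genes, with the highest count without control null no-LPS array 2, and 46 passed without the arrays with high Cpa1.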

How the data were processed

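The deposited table holds 45101 probe sets on 28 arrays. These deposited values fit a log2 scale by their size, with a common minimum of 2.24. GCRMA and limma appear in the submitters' processing notes, without versions or roles. The authors' scale was kept. Centring is not evident in these log2 values, and whether the authors filtered or corrected for batch stays unknown. Gene names came from the GEO platform table, in which 34958 probe sets name 1 gene, 932 several and 9211 none, and the last 2 kinds were left out. Of the first, 34754 matched the RefSeq table by Entrez identifier. For each of 18194 genes the probe set of highest mean was kept, and the gene was tested if above the 40th percentile of its array on 2 or more arrays. Near the lowest means within 0.5 log2 units of it.

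Diet was tested in R 4.3.3 by limma 3.58.1, using lmFit and eBayes and Benjamini-Hochberg adjustment at 0.05, with LPS as a term on 8 null arrays (5 residual degrees of freedom), and within challenges and for interactions from 8 group means of 16 arrays (8 residual degrees of freedom). ± after a difference is the standard error. The members and the 27 gene lists (14 of pathways, 13 of cell types or tissues; 450 of 496 entries had a probe set) were chosen with earlier results of these data known. Named genes are the 10 in each direction with the smallest p-values without overlap of the diets in either challenge, clone names left out, up to 2 list members per direction, the 5 smallest p-values of each interaction and challenge, and Pparg, Lancl2, Cpa1, Adipoq, Xist, Tnf, Il1b, Il6 and Ifng. Other listed genes were named after their values were seen, and some genes the rule takes are left out of the text. Alternatives changed the normalisation, filter, probe set choice, variance model, array weights, replicate block, Xist term, covariates and arrays. On simulated data the fits recovered 6% and 55% of genes changed by 1 and 2 log2 units for diet with LPS as a term (14075 genes), 7% and 46% with LPS (14373 genes), 11% and 37% without LPS (14387 genes), and 1% and 22% for the interaction with LPS (14400 genes). For the interaction with genotype they recovered 7% and 46% (14387 genes). The changed genes had mean log2 values above 5, and no other diet difference was simulated. Noise came from the 16-array fit. For diet with LPS as a term no interaction with LPS was simulated, so recovery in the real data may be lower. Unchanged genes called were 4 for diet with LPS as a term, 5 with LPS and 7 without LPS. For the interactions with LPS and with genotype they were 0 and 6. Figures were drawn with matplotlib in Python.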

Additional observations from a re-analysis of the deposited data

Results flagged for a closer look

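The diet difference in null spleen was tested against itself with and without LPS, and 51 genes passed that test of the difference (limma, adjusted p under 0.05). The 5 with the smallest p-values, as the diet difference with LPS minus that without, were H1f7 at -2.27, Mmp2 at 1.67, Slc35e1 at 1.21, Ubr2 at 2.12 and Med15 at 1.56. Each group held 2 arrays, too few for a check of 1 array against the others of its group.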

How the results depend on the processing

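The comparison with LPS as a term called 0 genes under every alternative run, and with each array left out (0 to 0). It could miss real differences. In data simulated without a diet by LPS interaction, it recovered 6% of genes changed by 1 log2 unit and 55% changed by 2. With LPS, 0 genes passed with arrays centred on their medians, with the 60th percentile filter and with the mean of all probe sets, 96 with array weights, 6 with a term for high Xist, 7 without the arrays with high Cpa1, 2 with the 8 null arrays alone, and 0 to 177 with 1 array left out. Without LPS the counts were 14 centred, 11 with the 60th percentile filter, 7 with array weights, 236 without the arrays with high Cpa1, 1 without those with high Adipoq, 0 with the 8 null arrays alone, and 19 to 336 with 1 array left out. For the interaction of diet and LPS they were 21, 13, 11 and 216 under the first 4 of these, 15 with the Xist term, 2 with the 8 null arrays alone, and 25 to 288. For diet and genotype they were 15 with no filter, 46 without the arrays with high Cpa1, and 0 to 69. The wild-type comparison gave 0 to 1. For LPS in null mice, whose alternatives were chosen after seeing the data, 777 passed after quantile normalisation, 929 centred, 248 with no filter, 1268 with array weights, 222 with the Xist term, 41 without the arrays with high Adipoq, and 107 to 589 with 1 array left out. The causes were not tested. A lone array left in a group was assumed to vary like the other groups.

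Deviations of same-numbered arrays correlated at -0.484 to 0.512 over 6 pairs of groups, 2 of them over 0.1, so the numbers were not taken to pair the samples, which the labels leave unclear. With the replicate number as a block, 0 genes passed with LPS as a term, 5 with LPS, 25 without LPS and 38 for the interaction.

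Of the alternatives for named genes, 1157 kept direction and side of the threshold, 69 lost and 11 gained the call, and 20 turned sign, all in genes that did not pass. Pparg (reported at -0.01) read 0.012 after quantile normalisation, 0.056 with array weights, 0.057 with the Xist term, 0.0043 without the arrays with high Cpa1, 0.096 and 0.021 with the pancreas and erythroid list means as covariates, 0.16 without ABA no-LPS array 2 and 0.15 without control no-LPS array 1. Cpa1 read -0.40 with array weights, -0.33 with the pancreas covariate and -0.72 without control no-LPS array 1. Without the arrays with high Adipoq, Adipoq read 0.060, Il1b -0.54, Tnf -0.47 and Ifng 0.047. Those arrays are both control arrays with LPS, so these values compare the diets only without LPS. Il1b read -0.17, -0.022 and -0.065 without ABA no-LPS array 1, ABA LPS array 1 and control LPS array 1, Lancl2 0.000865 without ABA LPS array 2, and Ifng 0.42 without control LPS array 2. With 1 array left out the ranges were -0.18 to 0.16 for Pparg, -0.50 to 0.000865 for Lancl2, -0.72 to 3.02 for Cpa1, -0.17 to 0.71 for Il1b and -0.77 to 0.42 for Ifng. Leaving out the arrays with high Adipoq could not be fitted for the comparison with LPS or either interaction, and no wild-type array had high Cpa1. Arrays without counts give no depth, and the number of arrays limits the precision.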

Other observations

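Many genes read higher on both ABA arrays than on both control arrays with LPS, 3345 of all 13460 tested. Some listed genes among them, noted after their values were seen, are given here, and they passed no test. Nr4a1, an orphan nuclear receptor induced within minutes of stimulation, read 10.18 and 9.27 with LPS and 8.38 and 7.87 without on ABA arrays, against 8.39 and 8.38 with LPS and 8.42 and 8.21 without on control arrays. Il2rb, the beta chain of the interleukin-2 receptor, read 7.81 and 6.86 with LPS and 5.63 and 5.25 without on ABA arrays, against 5.73 and 5.32 with LPS and 5.67 and 5.55 without on control arrays. In both genes the ABA arrays with LPS were the highest of the 8. Calr, the chaperone calreticulin, read 11.78 and 11.73 with LPS on ABA arrays against 10.84 and 10.77 on control arrays, and overlapped without LPS.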
